A study of Brassica oleracea var. italica with 48 samples.

Results

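The roots described here are those of wild-type broccoli (Brassica oleracea var. italica) deprived of potassium for 1, 3 or 6 days, with 4 libraries a day, lettered a to d. Features whose ID begins with Bo were kept where at least 4 of these 12 libraries held 1 TPM or more, which left 28431 of 59225 Bo features (60586 features in all). TPM (transcript abundance per length, scaled to a fixed total per library) gives each level only relative to the other features of that library. The study followed roots and leaves in 48 libraries, in 12 groups of 4. Plants grew for 6 days on MS plates and then for 7 days in hydroponics with 2 mM K2SO4, with 16 h of light and 8 h of dark. The starved roots come from plants moved to medium that lacks potassium. The 12 control root libraries, used below for comparison, come from wild-type plants of the same days that were not moved to it.

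Potassium is the main inorganic cation of plant cells, where it sets osmotic pressure and membrane potential. Roots take it up through channels and, when the supply is low, through high-affinity transporters, and the genes of such transporters are known in several plants to be induced by starvation. Hormone, calcium and reactive oxygen signals are known to take part in that response, and root growth is slowed when potassium is short. HAK5, a transporter of this kind, and salicylic acid synthesis are named in the series. The gene table at hand shared 0 IDs with the features, so these genes, lists of transport and signalling genes and markers that could check the root label were not analysed here. Features are therefore given by ID, with no gene name or role.

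Of the features kept, 24598 were at 1 TPM or more in all 12 libraries, and 1962 had a mean of at least 100 TPM. The median of the mean level was 10.6 TPM. The 320 features at 1 TPM or more in exactly 4 libraries had a median level of 0.886 TPM, and the 408 just outside, in exactly 3, had 0.784 TPM. Features that reached 1 TPM only in the 4 libraries of a single day numbered 11 for day 1, 3 for day 3 and 7 for day 6. They passed only through the day on which they were high. Whole reads recovered from the TPM values numbered 13819010 in library d of day 3 and 17497553 to 19735733 in the others. In the shallowest library 1 read at the median coding length was worth 0.0582 TPM.

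Library d of day 3 stood apart from all others. On the first principal component of log2(TPM + 1), which held 41.2% of the variance, the day 1 libraries lay between -55 and -25.7 and those of day 6 between 15.6 and 43.8. Libraries a and c of day 3 lay between them, at -3.8 and -11.7. Library b of day 3, at -27.7, lay within the range of day 1, and library d lay at 65.6, beyond day 6. Its limma array weight, an estimate of quality, was 0.139, against 0.456 to 4.9 in the others. Features of short coding length stood higher in it, with a Spearman rho of deviation and coding length of -0.479 across features. Library d of day 6 stood apart on the second component (20% of the variance), at -59.7. Its rho of 0.373 did not set it apart, since libraries b and c of day 3 had 0.335 and 0.388. Deviations were taken from the mean of a day, so an outlying library also moves the rho of the others of its day. The median SD between the libraries of a day was 0.168 on day 1, 0.279 on day 3 and 0.212 on day 6 on the log2 scale, and 0.166 on day 3 without library d. Counts of calls in starved roots are given below with all 12 libraries and without library d of day 3. The sets of rises and falls described further on are those called with all 12. Differences from controls of named features are given with that library included. The labels do not say that the 4 libraries of a day came from separate plants, so p-values describe the spread among these libraries alone, which may be technical.

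**Figure D1:**
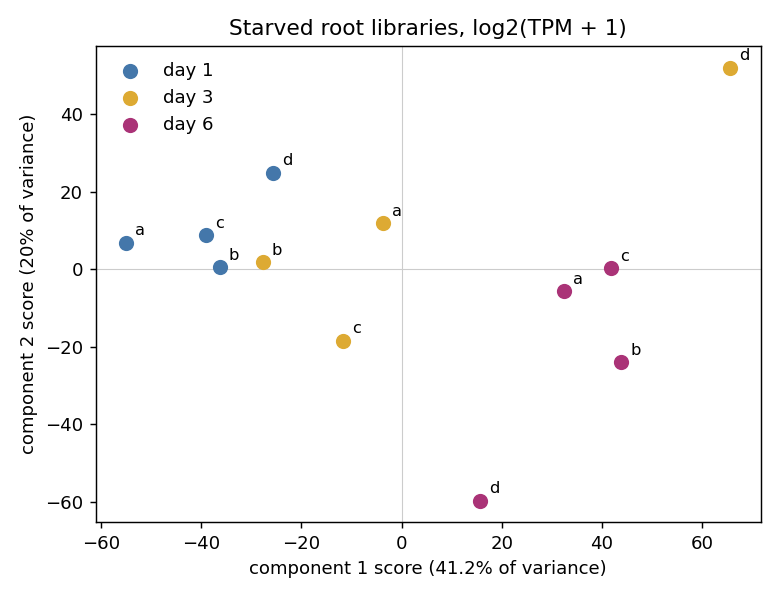
Scores of the 12 starved root libraries on the first and second principal components of log2(TPM + 1), in score units, coloured by day and lettered a to d. Day 1 lies at -25.7 or below on the horizontal axis and day 6 at 15.6 or above, and library d of day 3 lies alone at 65.6 and 52.1.

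Between day 1 and day 6, the longest interval, 1829 features rose (6.43%) and 2324 fell (8.17%) in starved roots, 4153 or 14.6% of the 28431 tested (limma on log2(TPM + 1), Benjamini-Hochberg adjusted p under 0.05). The median change of the rises was 0.79 and that of the falls -0.717 on the log2 scale. Larger changes were mostly rises. Of the 116 called features that changed by a log2 of at least 2, 89 were higher and 27 lower on day 6. The 4 libraries of each day did not overlap for 3851 of the called features, and for 7898 (27.8%) of all features tested. The median change of all features tested was -0.154. Rescaling by medians of ratios moved that median by over 0.1, to -0.02, and gave 2772 rises and 1548 falls, so the excess of falls turned into an excess of rises under that scaling. Removing each library's trend with coding length gave 2942 and 1837, and voom on the recovered reads gave 2252 and 2131.

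Features named here and below for a comparison of 2 days were required not to overlap between those days, so that separation is not a separate result. Bo3g037200 had the largest rise. Its levels on day 1 were 0.898, 2.79, 1.54 and 0.459 TPM in libraries a to d, those on day 3 were 26.8, 13.2, 52.4 and 18.3 TPM, and those on day 6 were 92.5, 62.8, 33.1 and 153 TPM. All day 3 and day 6 libraries lay above all of day 1, while days 3 and 6 overlapped. Its log2 change from day 1 to day 6 was 5.04 (limma, SE 0.46, adjusted p = 5.41e-05). Bo3g088360 held 0.538, 3.01, 2.08 and 0.626 TPM on day 1, 16.3, 17.1, 33.5 and 13 TPM on day 3, then 116, 58.1, 36 and 119 TPM on day 6. No library of one day overlapped those of another, and the rise from day 1 to day 6 was 4.98 (limma, SE 0.41, adjusted p = 3.79e-05).

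Bo8g038180 had the largest fall. It held 29.6, 76.3, 81.9 and 55.1 TPM on day 1, 14.27, 8.46, 19 and 28.6 TPM on day 3, then 8.19, 7.87, 6.68 and 4.8 TPM on day 6. The 3 days did not overlap, and it fell by 2.89 from day 1 to day 6 (limma, SE 0.34, adjusted p = 0.000247). Bo6g087680 stood at 80.2, 70.9, 97.8 and 108 TPM on day 1, at 37.2, 56.1, 46.9 and 54.1 TPM on day 3, then at 17.7, 10.9, 5.65 and 15.4 TPM on day 6. Each day lay wholly below the one before, and it fell by 2.83 to day 6 (limma, SE 0.27, adjusted p = 6.36e-05). In bulk roots, fewer cells of a type and less RNA per cell cannot be told apart.

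The number of calls turned on single libraries. Without library d of day 3, which enters here only through the shared estimate of the spread, limma called 8332 features (29.3%; 2591 rises and 5741 falls), and with only the 8 libraries of days 1 and 6 fitted it called 7510. Without library b of day 6 it called 2504. For all 4 features above, the limma adjusted p without library d of day 3 lay between 4.33e-05 and 0.000148.

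From day 1 to day 3, 286 features rose and 196 fell in starved roots, 482 or 1.7% of those tested (limma, adjusted p under 0.05). The median change was 1.11 for the rises and -0.883 for the falls, and 237 of the 482 changed by a log2 of at least 1. The 4 libraries of day 1 and the 4 of day 3 did not overlap for 477 of the called features and for 2849 (10%) of all features. Left without library d of day 3, limma called 376 (216 rises and 160 falls, 1.32%), and left without library c of day 1 it called 171.

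Bo6g094710 rose most over this interval. It held 3.37, 4.7, 7.16 and 22.2 TPM on day 1, then 83.2, 102, 153 and 119 TPM on day 3. On day 6 it held 198, 203, 170 and 192 TPM, above every library of day 3. Day 1 lay wholly below the other days, and the change to day 3 was 3.76 (limma, SE 0.38, adjusted p = 0.000431; 3.73 and 0.00238 without library d of day 3). The next largest rise was that of Bo3g037200, 3.47 (limma, SE 0.46, adjusted p = 0.00201; 3.61 and 0.00621 without it), with the levels given above.

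Among the falls to day 3, Bo3g017800 had the largest, with little spread within days. Its levels were 24.2, 22.5, 24.1 and 24.3 TPM on day 1, 3.48, 4.95, 4.73 and 4.79 TPM on day 3, then 3.1, 2.48, 2.51 and 2.62 TPM on day 6. The days did not overlap. It fell by 2.18 from day 1 to day 3 (limma, SE 0.13, adjusted p = 3.96e-06; -2.21 and 9.12e-06 without library d of day 3) and by a further 0.57 to day 6 (limma, adjusted p = 0.0376). Bo6g067290 held 9.07, 16.4, 24.1 and 18.8 TPM on day 1, 2.47, 1.66, 5.04 and 3.2 TPM on day 3, then 4.91, 7.2, 6.13 and 5.43 TPM on day 6. Day 1 was above the later days in every library, and it fell by 2.13 to day 3 (limma, SE 0.28, adjusted p = 0.00171; -2.17 and 0.00594 without library d of day 3).

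From day 3 to day 6, 242 features rose and 326 fell, 568 or 2% of those tested (limma, adjusted p under 0.05). The comparison shares the day 3 libraries with the one before and the day 6 libraries with the one over the whole interval. The 4 and 4 libraries did not overlap for 550 of the called features and for 2225 (7.83%) of all features. This interval depended most on library d of day 3. Without it limma called 3757 features (931 rises and 2826 falls, 13.2%), while without library b of day 6 it called 118. Rescaling by medians of ratios turned the split to 371 rises and 215 falls, and removing the coding length trend gave 522 and 324. With only the 8 libraries of these days fitted limma called 124.

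Bo8g076240 and Bo8g094910 rose late. Bo8g076240 was at 10.6, 9.84, 6.15 and 4.16 TPM on day 1, at 17.4, 12.2, 21.6 and 15.3 TPM on day 3, then at 107, 136, 48.3 and 102 TPM on day 6. It stepped up without overlap on both occasions, and the second step was 2.43 (limma, SE 0.31, adjusted p = 0.00383), against 1.07 for the first (limma, adjusted p = 0.102). Bo8g094910 held 5.1, 4.24, 5.72 and 3.37 TPM on day 1, then 5.32, 4.1, 7.83 and 5.26 TPM on day 3, which overlapped. On day 6 it held 34.21, 52.8, 16.1 and 40.1 TPM, above every earlier library, a change from day 3 of 2.39 (limma, SE 0.29, adjusted p = 0.00344). Both calls held without library d of day 3 (limma, adjusted p = 0.00657 and 0.00488).

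Bo9g002210 and Bo8g052860 fell most from day 3 to day 6, with wide spread on the earlier day. Bo9g002210 held 16.1, 16.1, 57.3 and 23.8 TPM on day 3, then 0.0445, 3.07, 0.643 and 3.06 TPM on day 6. These did not overlap, and it fell by 3.47 (limma, SE 0.72, adjusted p = 0.0291; 0.0223 without library d of day 3). The call was lost under 8 alternative settings, with limma adjusted p up to 0.0969. On day 1 library a held 0.194 TPM and the others 13.1, 13.1 and 9.11 TPM. Bo8g052860 held 20.4, 142, 86.2 and 122 TPM on day 3, where library a was far below the rest, and 6.86, 7.04, 7.94 and 11.4 TPM on day 6. All of day 6 lay below all of day 3, and it fell by 3.05 (limma, SE 0.48, adjusted p = 0.01; 0.0114 without library d of day 3).

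**Figure D2:**
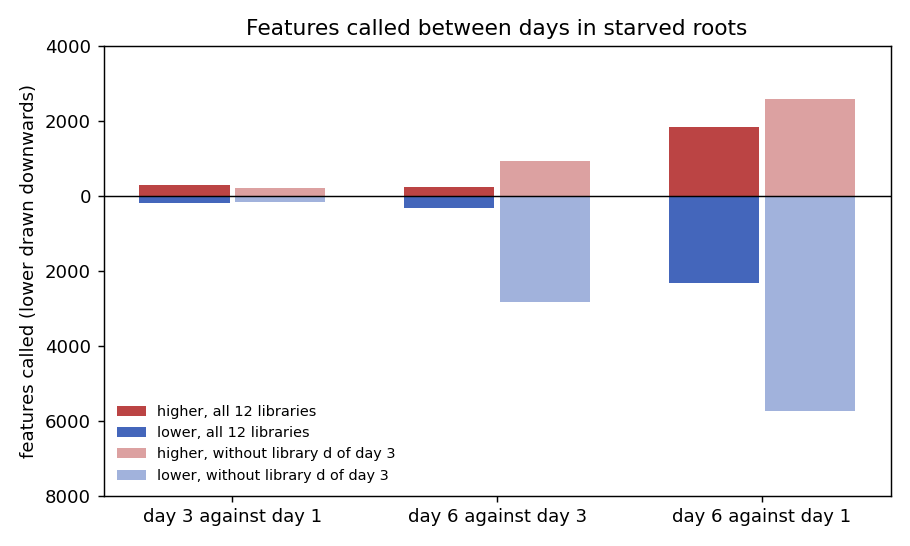
Number of features called by limma (adjusted p under 0.05) in each comparison of days in starved roots, with higher features drawn upwards and lower ones downwards, from all 12 libraries (dark bars) and without library d of day 3 (light bars). From day 3 to day 6 the calls go from 242 higher and 326 lower to 931 and 2826, while from day 1 to day 3 they stay few.

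Day 3 was intermediate for most features that changed between day 1 and day 6. Its mean lay between those of the other days for 1610 of the 1829 rises (88%) and 2062 of the 2324 falls (88.7%), against 53.9% of all features. With library d left out of the day 3 mean alone, the shares were 87.8% and 86.1% for the same 1829 and 2324 features, and 46.6% for all. Sets called in a fit without that library were not examined in this way. The 1829 rises and 2324 falls were chosen from day 1 and day 6, and the wider the gap between those days, the more room there is for day 3 to lie within it. The rises moved by a median of 0.4 from day 1 to day 3 and 0.365 from day 3 to day 6 on the log2 scale, over 2 days and then 3. The falls moved by -0.348 and -0.365. With library d left out of the day 3 mean alone, the medians of the same sets were 0.342 and 0.424 for the rises and -0.285 and -0.446 for the falls.

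A test for any difference between the 3 days (limma moderated F, adjusted p under 0.05) called 3168 features, 11.1%, and 7174 (25.2%) without library d of day 3. Without library c of day 1 it called 1785. In order of their means, 1170 of the 3168 rose through days 1, 3 and 6 (36.9%, against 15% of all features) and 1229 fell through them (38.8%, against 39%). With day 3 as the highest day, 300 were lowest on day 6 (9.47%, against 15% of all features) and 199 lowest on day 1 (6.28%, against 9.08%). With day 3 as the lowest day, 141 were highest on day 6 (4.45%, against 8.11%) and 129 highest on day 1 (4.07%, against 13.9%). Of the 7174, day 3 was highest and day 6 lowest in 1748 (24.4%), against 28.8% of all features. The order of the day means thus changed with library d of day 3, and all these orders are on the TPM scale, on which the median feature was lower on day 6 than on day 1.

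As a straight trend with day, 1789 features rose and 2320 fell, 4109 or 14.5% (limma slope, adjusted p under 0.05), a test that shares its libraries with the comparisons above. Without library d of day 3 it called 8904 (31.3%; 2641 rises and 6263 falls), and without library b of day 6 it called 2349. Rescaling by medians of ratios gave 2757 rises and 1528 falls, and removing the coding length trend gave 2954 and 1808. The steepest rises were those of Bo3g037200 and Bo3g088360, each with a log2 slope of 0.97 per day (limma, SE 0.09 and 0.08, adjusted p = 8.09e-05 and 4.65e-05). The steepest falls were those of Bo6g087680, at -0.57 per day (limma, SE 0.05, adjusted p = 6.47e-05), and Bo02800s010, at -0.56 per day (limma, SE 0.06, adjusted p = 0.000179). Bo02800s010 moved in the later interval. It held 17.8, 16.2, 23.1 and 15.5 TPM on day 1, then 16.4, 18.2, 16.9 and 24.9 TPM on day 3, which overlapped. On day 6 it held 0.898, 2.75, 0.837 and 4.89 TPM, below all the earlier libraries. It fell by 2.74 from day 3 to day 6 (limma, adjusted p = 0.00294), and its departure from the line did not pass (limma, adjusted p = 0.125).

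Few departures from a straight course through the 3 days passed the test. The departure of day 3 from the line between days 1 and 6 passed for 59 features (limma, adjusted p under 0.05), 0.208% of those tested, of which 42 lay above the line and 17 below it, or 31 and 26 with the coding length trend removed. A departure is not in itself a peak or a trough, since a feature that moves one way through the days at an uneven pace also departs, as Bo3g017800 did (-1.08, limma, adjusted p = 0.00161). At an unadjusted p under 0.05 there were 2657. Without library d of day 3 limma called 18 (12 above and 6 below, 0.0633%), without library b of day 6 it called 17, and without library a of day 3 it called 176.

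Bo9g059170 had the smallest adjusted p of the departures. It stood at 1.65, 2.93, 1.97 and 1.84 TPM on day 1, at 22.7, 13.1, 14.7 and 24 TPM on day 3, then at 4.37, 4.98, 3.7 and 4.9 TPM on day 6. The 3 days did not overlap, and day 3 lay 2.30 above the line (limma, SE 0.17, adjusted p = 0.00011; 2.17 and 0.000559 without library d of day 3). It rose by 2.64 to day 3 and then fell by 1.80 (limma, adjusted p = 2.81e-05 and 0.00294). Bo6g037200 had a trough. It held 84.8, 99.6, 71.8 and 81.8 TPM on day 1, 23, 19, 28.3 and 27.3 TPM on day 3, then 54.5, 66.7, 45.7 and 44 TPM on day 6, again without overlap. The departure of day 3 from the line was -1.49 (limma, SE 0.14, adjusted p = 0.000825; -1.54 and 0.00221 without library d of day 3).

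The other features named for the largest departures were less firm. Bo8g052860, with day 1 levels of 32.5, 23, 11 and 17.3 TPM, lay 2.35 above the line (limma, SE 0.42, adjusted p = 0.0452), and the call was lost under 16 alternative settings, with limma adjusted p up to 0.127. Leaving out library d of day 3 was among them (limma, adjusted p = 0.117), as were the medians of ratios, voom, the coding length trend and a pseudocount of 0.1. Its day 1 and day 3 libraries overlapped, since library a of day 3 held 20.4 TPM. Bo6g067290 lay below the line with a departure of -1.61 (limma, SE 0.24, adjusted p = 0.0187). Without library d of day 3 that was -1.64 (limma, adjusted p = 0.0519), and the call was also lost without library d of day 1, b of day 3 or b of day 6.

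Features that rose between day 1 and day 6 differed from the features that fell in level and in coding length. Their median coding length was 780 bases, against 1110 bases for the falls and 1047 for all features tested. Coding length also moved with the libraries themselves. Removing each library's trend with it gave 2942 rises and 1837 falls, as stated above. Its part in the lengths and shares given here was not tested. A mean of at least 100 TPM was found in 396 of the rises (21.7%), in 134 of the falls (5.77%) and in 6.9% of all features. A day 1 mean under 1 TPM was found in 153 of the rises (8.37%), against 2.42% of all features. A day 6 mean under 1 TPM was found in 219 of the falls (9.42%), against 4.2%. These shares follow in part from the selection, since a feature that is high on one day has room to be low on the other. Abundant features were called more often, with 23.5% of those at 50 TPM or more called between day 1 and day 6 and 11.5% of those under 2 TPM.

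The rises held 102933 to 114861 TPM in all on day 1 in starved roots, 133627 to 191863 TPM on day 3, then 187223 to 228609 TPM on day 6. The falls held 116583 to 135277 TPM, then 85044 to 93587 TPM and then 65660 to 70623 TPM. The direction in starved roots was fixed by the choice of features on these libraries. A starved sum below the controls on day 1 for the rises, and above them for the falls, was also favoured by that choice, so the order of starved and control roots is given as a description. In control roots the rises held 170547 ± 26031 TPM on day 1, 164534 ± 16789 TPM on day 3, then 212961 ± 18451 TPM on day 6 (SD, n = 4 each). On day 1 all 4 control libraries, from 146705 TPM up, lay above the starved ones. On day 6 the controls, at 194544 to 233863 TPM, overlapped the starved roots. For the falls the order was the other way round. Controls held 83843 to 103158 TPM on day 1, below every starved library, and 76055 to 90745 TPM on day 6, above every starved library.

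**Figure D3:**
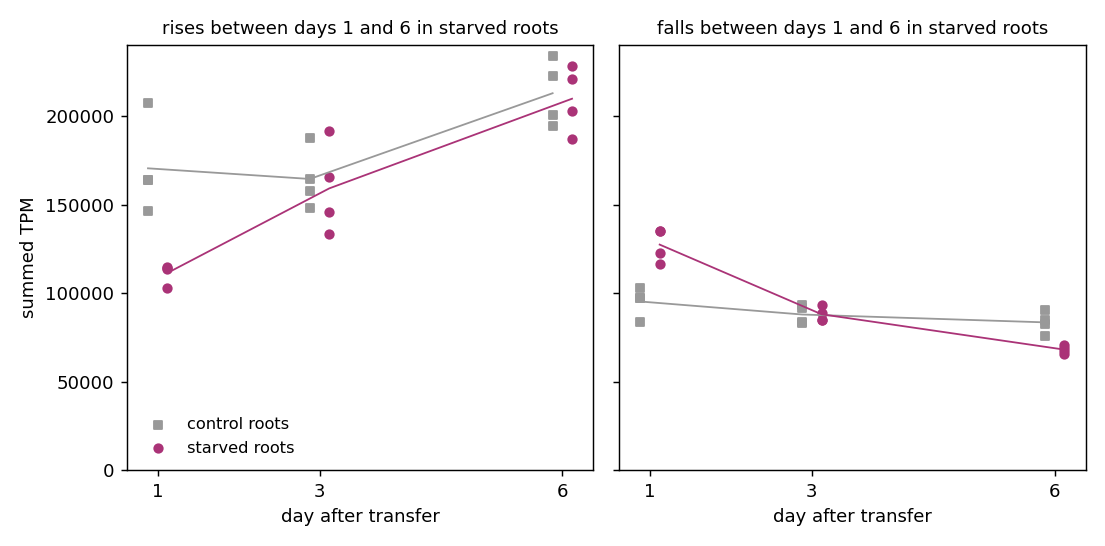
Summed TPM of the 1829 rises and the 2324 falls between day 1 and day 6 by day, with 1 point per library and the mean of each group, in starved and control root libraries. In the rises the starved libraries lie below the controls on day 1 and overlap them on day 6, and in the falls they lie above on day 1 and below on day 6.

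Control roots also changed with time, over the same days and the same features. These features were kept by their level in starved roots alone, so features that reached 1 TPM only in controls are left out of the counts for both. In the fit of all 24 root libraries limma called 1761 features in controls between day 1 and day 6 (607 or 2.13% higher, 1154 or 4.06% lower, 6.19% in all), 400 between day 1 and day 3 (1.41%) and 2479 between day 3 and day 6 (616 higher and 1863 lower, 8.72%). In that fit starved roots gave 4350, 762 and 935 (15.3%, 2.68% and 3.29%). The 935 and the 2479 do not rank starved roots below controls from day 3 to day 6. In the fit of starved roots alone, limma called 568 over that interval with starved library d of day 3 and 3757 (13.2%) without it. The other counts given here are from the fit of 24 and include that library, as do the correlations. Between day 1 and day 6, 222 features were called higher in both, which was 11% of the 2024 (7.12%) higher in starved roots and 36.6% of the 607 higher in controls. Called lower in both were 402, 17.3% of the 2326 (8.18%) of starved roots and 34.8% of the 1154 of controls. Across the 28431 features, which are not independent and share the day and the tissue, the change from day 1 to day 6 in starved roots was correlated with that in controls at 0.325 (Pearson) and 0.359 (Spearman). From day 1 to day 3 these were 0.0466 and -0.0819, and from day 3 to day 6 they were 0.299 and 0.335.

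**Figure D4:**
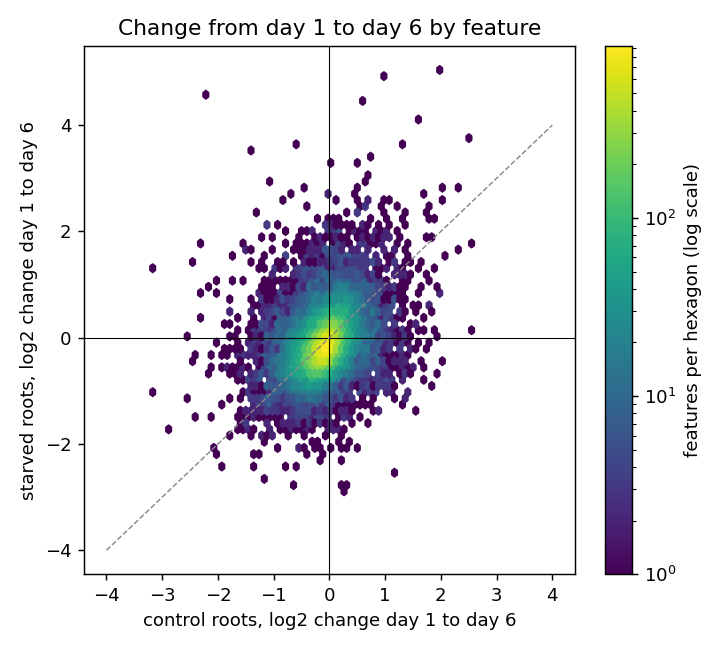
Change from day 1 to day 6 in starved roots (vertical axis) against that in control roots (horizontal axis), both as log2 differences of TPM + 1, with hexagons coloured by the number of features on a log scale and the dashed line marking equal change. The cloud of 28431 features leans along the line with a Spearman rho of 0.359, and the largest rises in starved roots lie far above it.

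The 1829 rises had a median change of 0.166 in controls, and 69.1% of them were higher on day 6, against 36.7% of all features, whose median was -0.072. In controls 208 of them were called higher (11.4%, against 2.13% of all features) and 69 lower (3.77%, against 4.06% of all features). The 2324 falls had a median of -0.256 in controls, and 19.8% of them were higher on day 6. Of these falls 372 were called lower in controls (16%, against 4.06% of all features) and 27 higher (1.16%, against 2.13%).

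Whether the change with time itself differed between starved and control roots was tested in the same fit. From day 1 to day 6 it differed for 1156 features, 4.07% (limma, adjusted p under 0.05), of which 736 had a higher change in starved roots than in controls and 420 a lower one. From day 3 to day 6 there were 527 (386 and 141, 1.85%), and from day 1 to day 3 there were 108 (81 and 27, 0.38%), again with shared libraries. The median difference of all features from day 1 to day 3 was -0.137, and rescaling by medians of ratios moved it by over 0.1 and gave 83 and 29. It also turned on control library a of day 1. Without that library it was -0.03, and the median from day 1 to day 6 went from -0.07 to 0.05. That library held 25913 features at 1 TPM or more, against 27785 to 28053 in the other controls of day 1. Without starved library d of day 3 the counts were 1301, 445 and 46. For day 1 to day 3 the count was 233 without starved library b of day 3, and for day 3 to day 6 it was 325 without control library a of day 6.

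Bo6g094710 differed most, and its controls went the other way. Controls held 46.3, 49.2, 23.6 and 71.8 TPM on day 1, 3.01, 4.4, 5.63 and 41 TPM on day 3, then 11.5, 4.83, 8.75 and 11.3 TPM on day 6. On day 1 they lay above every starved library, and on days 3 and 6 below. The starved change exceeded the control change by 6.13 to day 3 (limma, SE 0.77, adjusted p = 0.000304) and by 6.76 to day 6 (limma, SE 0.77, adjusted p = 4.11e-05).

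Bo8g076240 came next over the whole interval, and its starved change exceeded the control change by 4.86 (limma, SE 0.42, adjusted p = 2.20e-06). In controls it held 5.92, 3.39, 4.41 and 9.47 TPM on day 1, 1.3, 2.26, 1.73 and 2.69 TPM on day 3, then 1.42, 1.66, 1.27 and 1.68 TPM on day 6. Starved and control libraries overlapped on day 1 and not afterwards. Bo2g092570 was the second for day 1 to day 3. It stood at 0.172, 0.214, 0.489 and 1.66 TPM in starved roots on day 1, at 9.53, 10.8, 24.5 and 11.2 TPM on day 3, then at 11, 24.5, 18.9 and 25.7 TPM on day 6. Controls lay between 0.39 and 7.23 TPM on all days, below every starved library of days 3 and 6, and the difference to day 3 was 4.1 (limma, SE 0.65, adjusted p = 0.00488).

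Among the features whose change was lower in starved roots, Bo6g067290 differed by -3.01 to day 3 (limma, SE 0.43, adjusted p = 0.00165). Its controls held 4.63, 3.91, 3.75 and 4.15 TPM on day 1, then 8.13, 8.25, 5.74 and 12.3 TPM on day 3. They lay below all starved libraries on day 1 and above all of them on day 3. Bo8g038180 differed by -2.72 to day 3 and by -3.15 to day 6 (limma, SE 0.47 each, adjusted p = 0.00938 and 0.000327). Its controls held 17.1, 10.6, 12.4 and 12.5 TPM on day 1, then 19.9, 10.5, 15 and 19.1 TPM on day 6, below the starved roots on day 1 and above them on day 6. Bo8g068450 had a difference of -3.68 to day 6 at the threshold (limma, SE 1.05, adjusted p = 0.0492), lost under 20 alternative settings with adjusted p up to 0.113. In starved roots it held 87.4, 35.6, 84.6 and 36.1 TPM on day 1, then 7.85, 12.7, 11.5 and 5.25 TPM on day 6, without overlap. Its controls were scattered, at 47.6, 3.88, 2.53 and 1.95 TPM and then 41.1, 6.35, 13.9 and 12.2 TPM.

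Between day 3 and day 6, the change of Bo7g059810 and Bo8g004490 was higher in starved roots than in controls. Starved libraries of Bo7g059810 held 23.6, 21.9, 31.2 and 22.3 TPM on day 3, then 56.5, 89.5, 58.3 and 38.5 TPM on day 6, while controls held 70, 7.49, 49.7 and 54.9 TPM and then 4.72, 7.6, 8.61 and 8.88 TPM. The starved roots rose without overlap and the controls overlapped through library b of day 3, and the changes differed by 3.34 (limma, SE 0.62, adjusted p = 0.00529). Bo8g004490 held 8.67, 6.72, 1.99 and 11.5 TPM on day 3, then 31, 6.67, 13.4 and 11.7 TPM on day 6 in starved roots, which overlapped. Its controls held 9.23, 41.9, 20.8 and 13.5 TPM and then 2.87, 3.31, 4.76 and 3.67 TPM, without overlap. The difference of 3.07 (limma, SE 0.60, adjusted p = 0.00718) thus held a fall in controls of -2.07 (limma, adjusted p = 0.00596) and a change in starved roots of 1.00 that did not pass (limma, adjusted p = 0.282).

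Over the same interval the change of Bo9g002210 and Bo9g161750 was lower in starved roots than in controls. Bo9g002210 was listed at 0 in all 12 control libraries, so its difference of -3.47 (limma, SE 0.80, adjusted p = 0.0233) restated its fall in starved roots. The call was lost with a pseudocount of 0.1, with voom on the recovered reads, without starved library c of day 3 and without starved library a of day 6 (limma, adjusted p up to 0.684). Bo9g161750 held 2.34, 4.2, 9.85 and 6.28 TPM on day 3, then 1.99, 2.22, 2.4 and 2.13 TPM on day 6 in starved roots, which overlapped, and the change did not pass there (limma, adjusted p = 0.0915). Its controls held 3.68, 1.35, 3.69 and 4.99 TPM and then 10, 7.82, 8.55 and 10.6 TPM, all higher on day 6, and the difference was -2.22 (limma, SE 0.38, adjusted p = 0.00277). On day 1 it was low in starved roots, at 0.317, 0.562, 0.46 and 0.307 TPM.

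**Figure D5:**
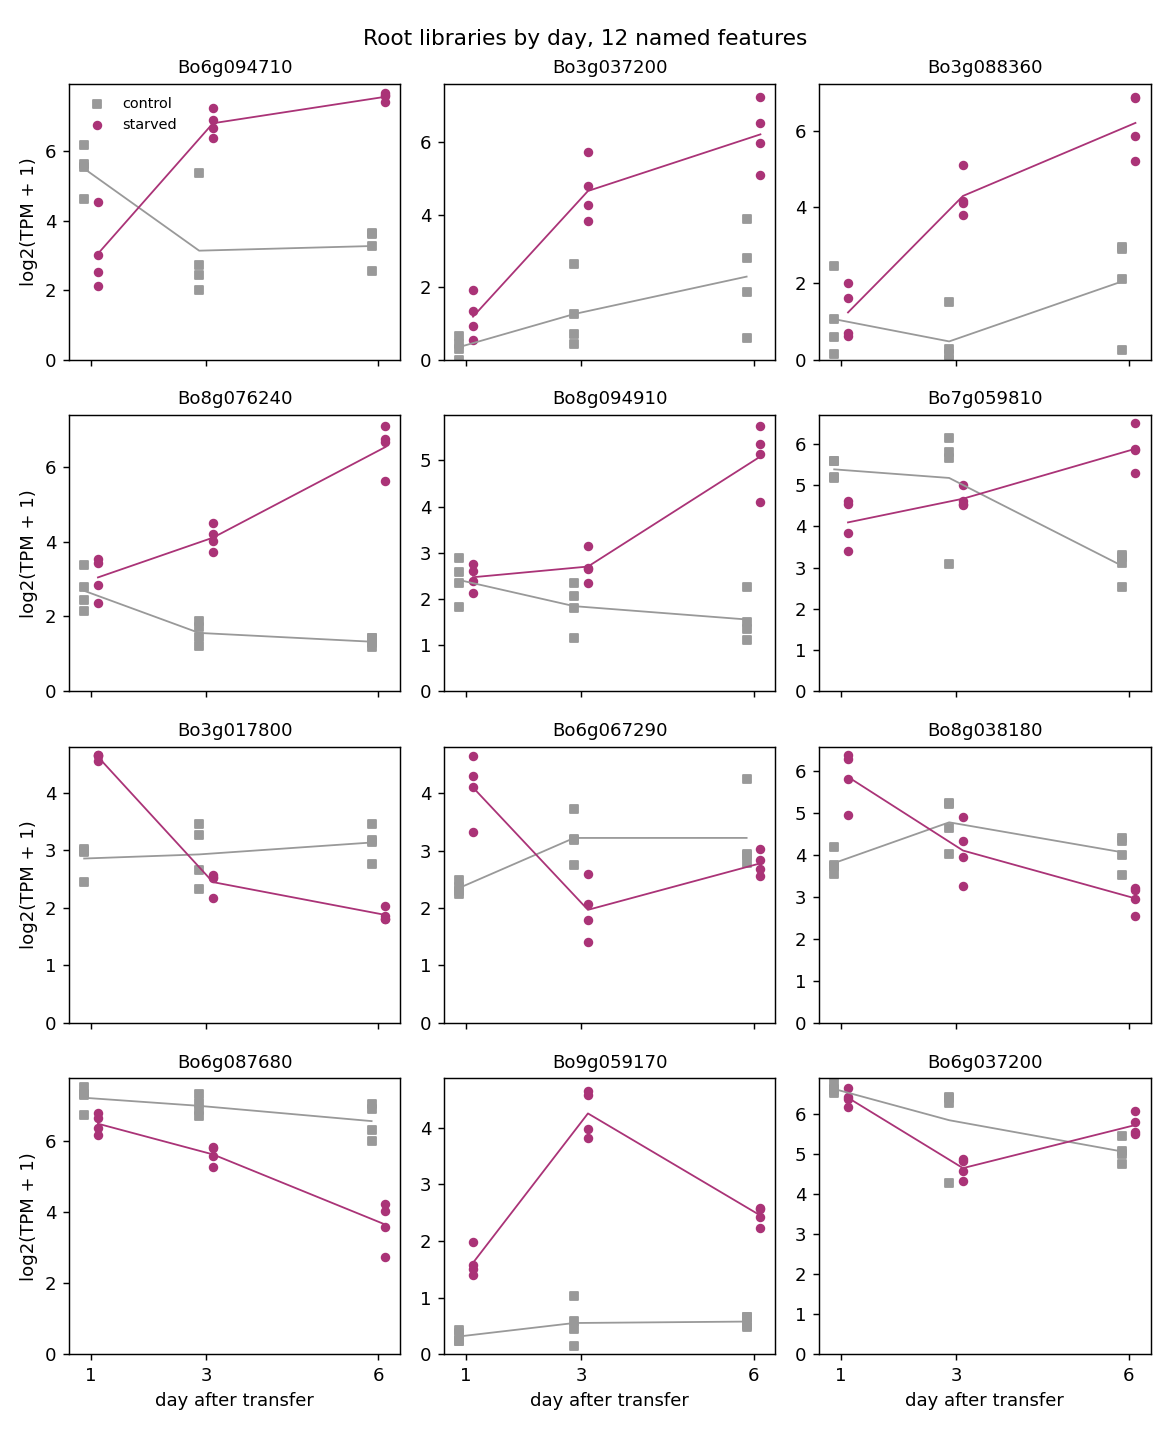
Levels of 12 of the named features in starved and control root libraries by day, as log2(TPM + 1), with 1 point per library and lines through the means of 4. In starved roots Bo8g076240 and Bo3g088360 climb away from the controls, and Bo6g094710 starts below the controls and ends above them. Bo3g017800 and Bo8g038180 start above the controls and end below them, and Bo9g059170 peaks on day 3 in starved roots.

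Bo3g037200 reached 13.7 TPM in control library b of day 6, and the highest control level of Bo3g088360 was 6.71 TPM, so the starved libraries of day 6 lay above all controls in both. Their changes from day 1 to day 6 exceeded those of controls by 3.09 and 3.99 (limma, adjusted p = 0.0322 and 0.00426). In controls Bo3g037200 also rose over these days, by 1.95 (limma, adjusted p = 0.0479). The control change of Bo3g088360, 0.99, did not pass (limma, adjusted p = 0.393). Bo3g017800 was between 4.01 and 10 TPM in the 12 control libraries, below the starved roots of day 1 and above those of day 6, a difference to day 3 of -2.25 (limma, adjusted p = 0.000296). Bo9g059170 was at 1.03 TPM or less in every control library, and its control levels changed by 0.24 from day 1 to day 3 (limma, adjusted p = 0.555). Bo8g052860 was at 115, 53.8, 79.1 and 155 TPM in controls on day 3, also above the 23.9 to 43.6 TPM of day 6, and its change from day 3 to day 6 was not called as different from that of controls (-1.53, limma, adjusted p = 0.293).

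Bo8g094910 was between 1.17 and 3.79 TPM in controls on day 6, below every starved library, and its change from day 3 to day 6 exceeded that of controls by 2.67 (limma, adjusted p = 0.00264). Bo6g087680 stood at 62.8 to 129 TPM in controls on day 6, above every starved library, and its changes to day 6 differed by -2.18 (limma, adjusted p = 0.00135). For Bo02800s010 no change was called as different from that of controls, at -1.58 from day 3 to day 6 and -1.52 from day 1 to day 6 (limma, adjusted p = 0.469 and 0.414). Its controls ranged from 11.6 to 68 TPM on day 1 and from 4.5 to 47.1 TPM on day 6, with a change of -1.16 that did not pass (limma, adjusted p = 0.292). For Bo6g037200 the first step, to day 3, was not called as different from that of controls (-0.98, limma, adjusted p = 0.335), while the second step was (1.86, limma, adjusted p = 0.0286). Its controls held 83.8, 18.4, 84.9 and 77.2 TPM on day 3, where library b was low, then 32.7, 25.8, 31.1 and 42.7 TPM on day 6.

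In the leaves of the same starved groups, 1038 of the 1829 root rises (56.8%) and 1743 of the 2324 root falls (75%) were detected, at 1 TPM or more in at least 4 of 12 starved leaf libraries, against 77.5% of all features. Among those detected, the root rises changed by a median of 0.301 from day 1 to day 6 in leaves and 77% were higher, against a median of 0.137 and 65.7% of all features. The root falls had a median of -0.0218, and 47.9% were higher.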

How the data were processed

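Root and leaf RNA was read by DNBseq transcriptome sequencing, per the labels. STAR 2.7.10a, cutadapt 4.1, DESeq2 and FastQC 0.11.9 are named, without their roles, per the submitters' processing notes. Build, annotation and counting tool were not given in the sources used here. A single table of TPM was deposited by the authors. Whole reads were recovered for all 44911 features above 0 in at least 2 libraries. All nonzero values were whole to within 0.05 reads (deviating by at most 0.000976). The search accepted a step only where its deviation was small, so these deviations follow from that rule and do not test the recovery. Of the Bo coding lengths found with these reads, 99.8% were multiples of 3. The unit of length was set by taking the common spacing as 3 bases. Every pair of starved libraries of a day differed beyond sampling noise (chi-square of at least 6.7 per degree of freedom). Column names matched the labels for all libraries.

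Days were compared with limma 3.58.1 (R 4.3.3; lmFit, eBayes with a trend) on log2(TPM + 1) in 1 fit of the 12 starved root libraries with a mean per day, and starved with control changes in 1 fit of 24. Changes of features near 0 TPM come out too small on this scale. The slope is the least-squares change per day over the day means, and the departure is day 3 minus 0.6 times day 1 and 0.4 times day 6. Adjustment was by Benjamini-Hochberg over all 28431 features. The main fit of the 12 starved libraries was run on simulated reads with known changes between days. Those reads had no outlying library and no trend with coding length. The fit of 24 and the alternatives were not simulated. Named features are, per comparison, the 2 rises and 2 falls of largest change among called features with a mean of at least 1 TPM. For comparisons of 2 days, the 4 and 4 libraries also had to lie apart. Alternatives were another pseudocount (0.1), no filter, a log2 change of at least 1, rescaling by medians of ratios, voom, array weights, removal of the coding length trend, other sets of libraries, a replicate block and leaving out each library. Leaf medians came from mean log2(TPM + 1). Tables were made with pandas 2.3.3 and numpy 2.4.6 under Python 3.11.15, and figures with matplotlib 3.10.9. The features, comparisons and alternatives were chosen with earlier results of these data known. A set of gene lists and markers was not used, since 0 of the IDs matched the 53125 genes of the gene table.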

Additional observations from a re-analysis of the deposited data

Results flagged for a closer look

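Among 114 groups of 4 root libraries of the 19 named features, 13 had 1 library far from the other 3, 10 of them in controls. The rule flags about 1 in 20 groups of normally distributed values, but it was run on TPM. The features were also chosen largely by changes in starved libraries, which favoured small spread there. The 13 and the 10 are therefore not read against that rate. In starved roots the flagged libraries were b of day 1 (22.5 TPM) and a of day 3 (3.48 TPM) for Bo3g017800, both within groups of small spread, and c of day 3 for Bo2g092570 (24.5 TPM). In controls the single libraries on day 1 held 4.49 TPM for Bo3g017800, 53.4 TPM for Bo8g052860 and 47.6 TPM for Bo8g068450. On day 3 they held 4.76 TPM for Bo2g092570, 1.83 TPM for Bo3g088360, 18.4 TPM for Bo6g037200, 41 TPM for Bo6g094710 and 27.7 TPM for Bo8g068450. On day 6 they held 47.1 TPM for Bo02800s010 and 18.1 TPM for Bo6g067290.

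Listed here are 18 changes with time for which starved and control roots differed by the limma test of the difference itself. The list is not complete, since other changes of the named features also passed. Among these were the changes from day 1 to day 6 of Bo3g017800, Bo2g092570 and Bo7g059810. Most of the changes listed were named because they passed this same test, so that they pass it is not a separate result. From day 1 to day 3 the starved change minus the control change was 6.13 for Bo6g094710, 4.1 for Bo2g092570, -2.25 for Bo3g017800, -3.01 for Bo6g067290 and -2.72 for Bo8g038180 on the log2 scale. From day 3 to day 6 it was 2.66 for Bo8g076240, 2.67 for Bo8g094910, 3.34 for Bo7g059810, 3.07 for Bo8g004490, -3.47 for Bo9g002210 and -2.22 for Bo9g161750. From day 1 to day 6 it was 6.76 for Bo6g094710, 4.86 for Bo8g076240, 3.09 for Bo3g037200, 3.99 for Bo3g088360, -3.15 for Bo8g038180, -2.18 for Bo6g087680 and -3.68 for Bo8g068450.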

How the results depend on the processing

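Of 32 values of named features, 27 kept their call under all alternatives run, 0 reversed, and 52 of 816 values over features and alternatives missed the threshold. These features were chosen as the largest called changes in largely the same libraries, which favoured keeping the call and its direction. The counts of calls moved more. With array weights limma called 2423 features from day 1 to day 3, 5112 from day 3 to day 6, 13064 from day 1 to day 6, 12176 for any difference, 13047 for the slope and 504 for the departure, and 1477, 2405 and 4304 for the differences from controls over the same 3 intervals. At a log2 change of at least 1 (for the slope, over the 5 days) there were 237, 241, 1080, 1169, 1032 and 32 in starved roots. With all 24 root libraries in the fit the calls were 762 from day 1 to day 3, 935 from day 3 to day 6 and 128 for the departure. With only the 8 libraries compared there were 124 from day 3 to day 6 and 7510 from day 1 to day 6. With no filter 270 were called from day 3 to day 6. Leaving out 1 library at a time gave 171 to 551 from day 1 to day 3, 118 to 3757 from day 3 to day 6, 2504 to 8332 from day 1 to day 6, 1785 to 7174 for any difference, 2349 to 8904 for the slope and 17 to 176 for the departure. For the differences from controls it gave 46 to 233, 325 to 732 and 841 to 1317. The cause of these shifts was not tested. With the letter as a replicate block, 338 features were called from day 3 to day 6 and 29 for the departure. The letters were not taken as pairs. Deviations of libraries of the same letter correlated at 0.0808 to 0.282 between days 1 and 3, each best with its own letter, a hint from the data and not the design, and at -0.429 to 0.123 between day 6 and the other days. Depth limits features near 1 TPM most, where 1 read at the median coding length is worth 0.0582 TPM in the shallowest library.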
